A study of Mus musculus with 4 samples.

Results

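Type I interferon-stimulated genes are genes that cells switch on when the interferons alpha and beta bind the receptor made of IFNAR1 and IFNAR2. The receptor's kinases JAK1 and TYK2 then start a signal in which STAT2 and IRF9 take part in a complex that binds a short DNA element, the interferon-stimulated response element, in the promoters of these genes. Their products sense viral RNA and DNA, block translation, degrade RNA, trap budding virus or feed back on the pathway, and in the brain they are made by microglia, astrocytes, endothelial cells, neurons and entering leukocytes alike. Interferon gamma, made by T and NK cells, acts through another receptor and induces part of the same genes. A set of 39 such genes, given as a list of symbols, was followed here among the 54532 genes listed in the deposited files, and all 39 were found.

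The tissue was C57BL/6 mouse brain from outside the tumor mass, in a design that crossed age with the presence of a glioma, and poly-A RNA was sequenced as paired-end libraries. Young tumor-bearing mice, 8 to 12 weeks old, and old tumor-bearing mice, for which the design gives 8 to 90 weeks, had received 50000 cells of GL261, a transplantable C57BL/6 glioma line, in the brain, and their tissue was taken on day 21. Young naive and old naive mice were the controls, with no sham engraftment described and with no drug treatment in any group. The old range starts at the lower bound of the young one, and the naive samples carry the GL261 tag too, so age and tumor were used as labelled by group. Each of the 4 groups was 1 library, and the sources used here do not say how many mice it came from. No test between groups was therefore possible, and every statement compares libraries.

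Values are in FPKM, fragments scaled to exon length and to sequencing depth, as deposited, and where 4 values of a gene follow one another they are for the young mice, first naive and then tumor-bearing, followed by the old mice in the same order. A fold is a ratio of FPKM, and the range in parentheses after it is the exact 95% interval of the ratio of reads, which covers counting error only and not differences between mice. A gene was called higher or lower when it reached 1 FPKM in at least 1 of the 2 libraries and its log2 ratio of FPKM + 0.1 was at least 1 in size, that is, 2-fold. The added 0.1 understates the ratios of low genes.

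The libraries held between 19572251 and 23267926 fragments in genes. The old tumor-bearing library stood apart from the others. Its neuron markers summed to 292 FPKM against 975 to 1316 FPKM in the other 3 libraries, with all 8 markers of the list present in each. Its proliferation markers summed to 132 FPKM against 0.523 to 6.28 FPKM, and its monocyte and macrophage markers to 270.3 FPKM against 9.14 to 33.4 FPKM. Lyz2 alone made up 244 FPKM of the 270.3, and Cd163, another marker of that list, was lower than in old naive tissue (0.102 against 0.936 FPKM). On the deposited scale the median log2 ratio of all genes between the old libraries, tumor-bearing over naive, was -0.31, and 4 other scalings moved it up by 0.38 to 0.56. The ratios of that library over the others on the deposited scale are therefore the lowest of the 5 scalings for each gene.

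Interferon-stimulated genes were low in naive brain, a few-fold higher in young tumor-bearing brain and far higher in old tumor-bearing brain. The 39 genes summed to 67.5 FPKM in young naive, 196 in young tumor-bearing, 89.8 in old naive and 2112 in old tumor-bearing tissue. Their median level was 0.853, 2.68, 1.28 and 34.4 FPKM, and 15, 33, 22 and 39 of them reached 1 FPKM. They held 0.0215% of the fragments in young naive tissue (Wilson 95% interval 0.0209% to 0.0221%), 0.0542% in young tumor-bearing (0.0532% to 0.0552%), 0.0243% in old naive (0.0236% to 0.025%) and 0.726% in old tumor-bearing tissue (0.722% to 0.730%). All 39 were highest in the old tumor-bearing library, as were 33.7% of the 17441 genes that reached 1 FPKM in any library. For 28 of the 39 the order from low to high was young naive, old naive, young tumor-bearing, old tumor-bearing, an order held by 7.01% of those genes. The order of the 2 naive libraries turned under at least 1 other scaling in 9 of these 28 (Bst2, Ddx58, Ifih1, Ifit2, Ifit3b, Irf9, Rtp4, Samhd1 and Trim30a). For 26 of the 39 genes the 2 naive libraries did not differ beyond counting error on the deposited scale. The interval of old over young naive tissue lay above 1 for 12 and below 1 for Dhx58 alone. In 8 (Oas2, Usp18, Stat2, Ifi44, Dhx58, Parp14, Eif2ak2 and Ifi204) the naive libraries changed places, and in 3 (Cmpk2, Trim25 and Herc6) old naive tissue lay above young tumor-bearing tissue on the deposited scale. With equal FPKM totals young tumor-bearing tissue was the higher in all 3, and with both scalings by fragments in Cmpk2 and Trim25. All 39 were highest in old tumor-bearing tissue under each of the 5 scalings.

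**Figure D1:**
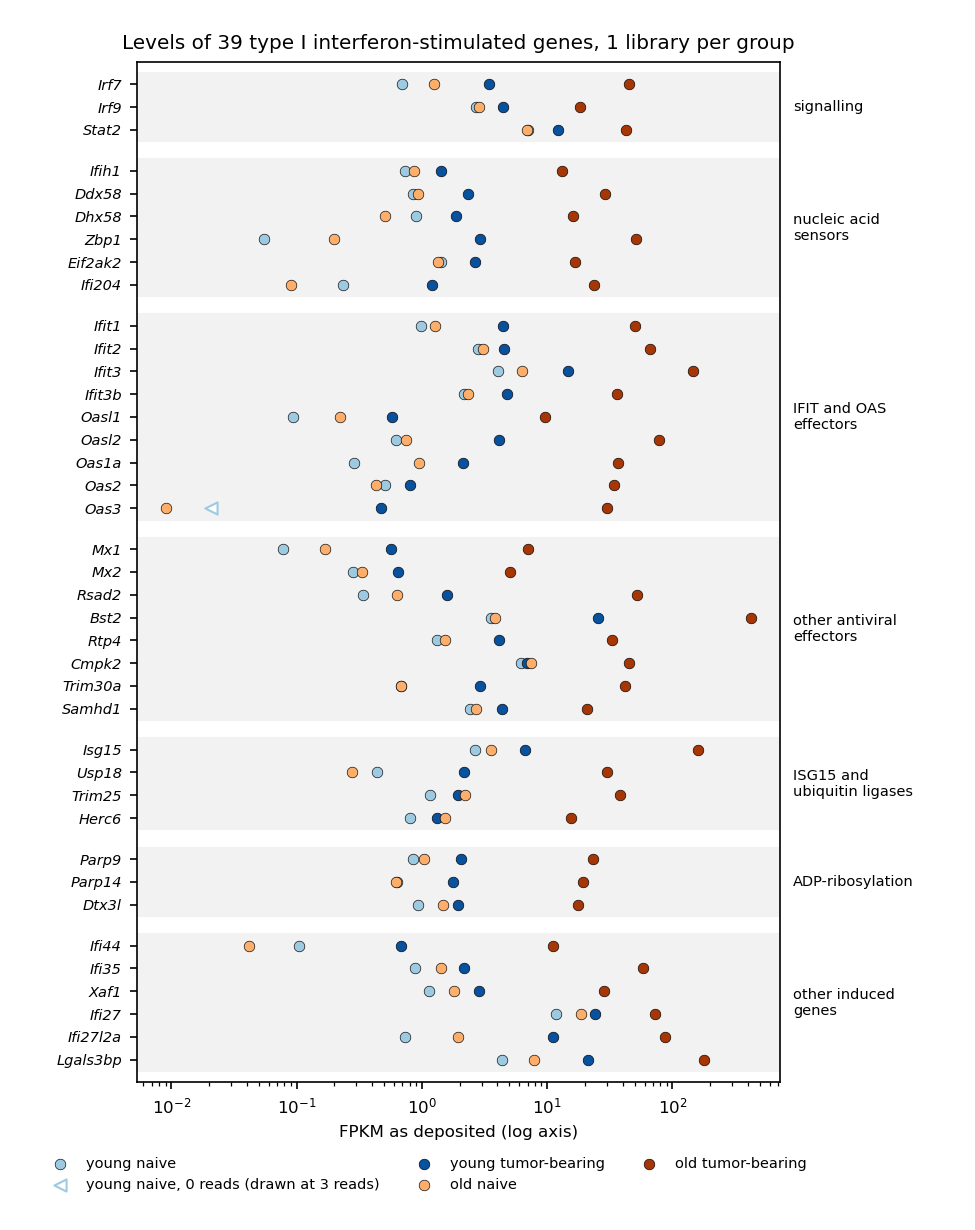
Level of each of the 39 genes in FPKM on a log axis, grouped by role, with 1 point per library. The old tumor-bearing point lies to the right of the other 3 in every row, and the open triangle marks a library with 0 reads of Oas3, drawn at the level of 3 reads.

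Promoter sequence was compared as a description. Interferon-stimulated genes are known for this promoter element, so its share in the list is not independent of how the genes were chosen. The RefSeq promoter table (GRCm38.p6, 250 bases before to 50 after the annotated start) held 27 of the 39 genes. The interferon-stimulated response element was searched on both strands as GAAA, any 2 bases and GAAA again, with overlapping matches kept. It was present in 13 of the 27 genes, against 1079 of the 27025 genes of the table (3.99%) and 3.44% of all promoters. The gamma-activated site, an element of genes that respond to interferon gamma, was searched as TTCNNNGAA, which reads the same on both strands. It was found in 6 of the 27 genes, against 9.55% of all genes. Genes with the first element had a median log2 ratio of 1.83 in young and 5.14 in old tumor-bearing against naive tissue (13 genes), and those without it 1.09 and 4.21 (14 genes). The ranges overlapped, 0.80 to 2.81 against 0.16 to 2.55 in the young comparison. Between the tumor-bearing libraries the medians were equal, 3.57 and 3.57, and between the naive libraries the genes with the element had the lower median, 0.12 against 0.61. For the gamma-activated site the medians with and without it were 1.04 and 1.37 in the young and 4.76 and 4.53 in the old comparison of tumor-bearing with naive tissue. A match is a description of letters in this window, and Oas2, Mx1, Mx2, Usp18, Dhx58, Rtp4, Zbp1, Parp9, Parp14, Ifi27, Ifi27l2a and Ifi204 were not in the table.

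The 200 bases before the start are printed for 8 genes, 5′ to 3′ on the strand of the gene, with the response element in capitals. Isg15 (chr4:156200819-156201018, minus strand), Bst2 (chr8:71537473-71537672, minus strand) and Oas1a (chr5:120907526-120907725, minus strand) are shown because their matches overlap in runs. Ifit1 (chr19:34640689-34640888, plus strand), Ifit3 (chr19:34583329-34583528, plus strand) and Ifit3b (chr19:34607757-34607956, plus strand) are shown because they are neighbours with paired matches on the opposite strand. Rsad2 (chr12:26456453-26456652, minus strand) has 1 match, and Lgals3bp (chr11:118401960-118402159, minus strand), the member with the second highest level in old tumor-bearing tissue, has none in these letters. In GENCODE M21 the gene body of Lgals3bp reaches to 118402092, so part of its printed window lies inside the gene there.
Isg15: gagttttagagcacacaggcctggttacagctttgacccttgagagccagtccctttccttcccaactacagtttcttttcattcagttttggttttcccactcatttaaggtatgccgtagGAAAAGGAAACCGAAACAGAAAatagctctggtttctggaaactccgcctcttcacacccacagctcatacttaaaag
Bst2: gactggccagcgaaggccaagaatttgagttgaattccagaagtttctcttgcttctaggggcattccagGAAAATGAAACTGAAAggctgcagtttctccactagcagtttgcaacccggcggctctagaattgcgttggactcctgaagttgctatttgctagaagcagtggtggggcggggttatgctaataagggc
Oas1a: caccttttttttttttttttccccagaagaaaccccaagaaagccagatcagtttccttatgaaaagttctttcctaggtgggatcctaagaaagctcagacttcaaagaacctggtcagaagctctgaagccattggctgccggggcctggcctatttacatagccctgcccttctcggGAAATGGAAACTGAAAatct
Ifit1: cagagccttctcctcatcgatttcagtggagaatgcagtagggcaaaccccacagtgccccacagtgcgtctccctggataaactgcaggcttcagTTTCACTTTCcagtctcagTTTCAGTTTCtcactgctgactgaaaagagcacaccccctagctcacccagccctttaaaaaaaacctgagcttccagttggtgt
Ifit3: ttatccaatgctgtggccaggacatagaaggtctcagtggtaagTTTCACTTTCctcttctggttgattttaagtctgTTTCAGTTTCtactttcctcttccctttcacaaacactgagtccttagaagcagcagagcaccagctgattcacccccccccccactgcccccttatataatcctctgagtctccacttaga
Ifit3b: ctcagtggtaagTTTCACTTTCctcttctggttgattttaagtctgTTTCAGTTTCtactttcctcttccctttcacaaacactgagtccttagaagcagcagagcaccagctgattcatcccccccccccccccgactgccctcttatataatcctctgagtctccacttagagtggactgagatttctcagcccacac
Rsad2: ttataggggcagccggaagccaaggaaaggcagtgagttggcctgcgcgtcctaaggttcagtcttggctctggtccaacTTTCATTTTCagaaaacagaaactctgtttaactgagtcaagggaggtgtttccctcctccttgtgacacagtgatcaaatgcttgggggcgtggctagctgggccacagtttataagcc
Lgals3bp: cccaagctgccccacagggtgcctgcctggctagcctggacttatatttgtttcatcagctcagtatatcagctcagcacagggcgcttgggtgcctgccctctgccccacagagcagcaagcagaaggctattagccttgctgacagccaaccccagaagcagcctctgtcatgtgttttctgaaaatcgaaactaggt
Counted from the start, the 3 overlapping matches of Isg15 begin at -78, -72 and -66, those of Bst2 at -130 and -124, and those of Oas1a at -20 and -14. Ifit3 has its matches at -156 and -122 and Ifit3b at -188 and -154, so the spacing within each pair is the same. In Ddx58, Eif2ak2 and Ifih1, which are not printed, the match lay after the start.

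**Figure D2:**
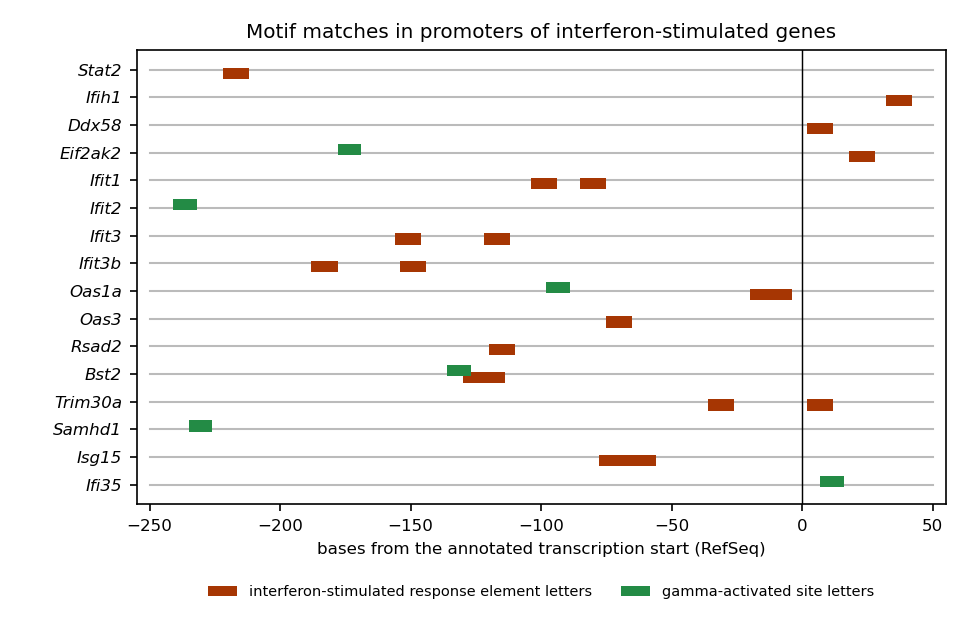
Positions of the letters of the interferon-stimulated response element and the gamma-activated site in the 300-base promoter windows of the 16 members with a match, in bases from the RefSeq start. Trim30a has 2 annotated starts, both drawn on its line. The response element was found in 13 genes and lay before an annotated start in 10 of them.

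Of the set, 3 genes carry the signal from the receptor or amplify it. Irf7, the transcription factor that drives the interferon alpha genes, was at 0.699, 3.46, 1.25 and 45 FPKM. Irf9, the DNA-binding partner of STAT2, was at 2.72, 4.43, 2.84 and 18.2 FPKM. Stat2 was at 7.05, 12.3, 6.86 and 42.7 FPKM. The 3 were highest in old tumor-bearing tissue by a wide margin. Irf7 was 4.94-fold (3.67 to 6.75) higher in young and 35.9-fold (28.5 to 45.8) higher in old tumor-bearing tissue. The other two differed less. Irf9 was 1.63-fold (1.40 to 1.88) and 6.41-fold (5.61 to 7.36) higher, and Stat2 1.75-fold (1.61 to 1.91) and 6.22-fold (5.73 to 6.76). Between the naive libraries Stat2 and Irf9 differed by less than counting error on the deposited scale.

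The sensors bind foreign or displaced nucleic acid and are themselves induced by interferon. Ifih1, which encodes MDA5, a sensor of long double-stranded RNA, was at 0.737, 1.41, 0.861 and 13.1 FPKM. Ddx58, which encodes RIG-I, a sensor of RNA ends, was at 0.846, 2.34, 0.925 and 28.8 FPKM. Dhx58, which encodes their regulator LGP2, was at 0.897, 1.86, 0.508 and 16.1 FPKM. All 3 were higher in tumor-bearing than in naive tissue at both ages. In the young comparison the ratio was 1.91-fold (1.53 to 2.40) for Ifih1, 2.77-fold (2.24 to 3.43) for Ddx58 and 2.08-fold (1.51 to 2.88) for Dhx58. In the old comparison they were 15.2-fold (12.5 to 18.5), 31.2-fold (25.6 to 38.3) and 31.8-fold (21.6 to 48.8) higher. Eif2ak2, which encodes PKR, the kinase that halts translation on double-stranded RNA, was at 1.43, 2.68, 1.35 and 16.6 FPKM. Its ratio in the old comparison, 12.3-fold (10.1 to 15.1), was the smallest of the 6 sensors.

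Zbp1 and Ifi204 had few reads in naive brain. Zbp1, a sensor of Z-form nucleic acid that can start necroptosis, had 4 reads in young naive, 205 in young tumor-bearing, 11 in old naive and 4201 in old tumor-bearing tissue, or 0.0554, 2.90, 0.199 and 51.2 FPKM. Its ratio was the highest of the 38 genes with reads in both libraries of the young comparison, 52.4-fold (20.2 to 194), and it was 257-fold (143 to 515) in the old one. Ifi204, a DNA-binding member of the p200 family, had 17, 86, 5 and 1971 reads, or 0.233, 1.21, 0.0897 and 23.8 FPKM. It was 5.17-fold (3.05 to 9.28) higher in young and 265-fold (113 to 818) higher in old tumor-bearing tissue. Of the 50-base windows of its transcripts, 703 of 3512 also occurred in transcripts of other genes, most of them of Ifi211, so its reads can be split between family members.

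The IFIT proteins bind viral RNA and block its translation, and their genes stand side by side on chromosome 19. Ifit1 was at 0.994, 4.41, 1.28 and 50.4 FPKM, and Ifit2 at 2.81, 4.51, 3.06 and 66.0 FPKM. Ifit3 was at 4.04, 14.6, 6.26 and 147 FPKM, and Ifit3b at 2.18, 4.80, 2.33 and 36.3 FPKM. On the deposited scale all 4 were lowest in young naive and highest in old tumor-bearing tissue. Between the naive libraries the intervals of Ifit1, Ifit2 and Ifit3b included 1. The genes differed in the young comparison. There Ifit1 was 4.43-fold (3.28 to 6.07) and Ifit3 3.61-fold (2.99 to 4.37) higher, while Ifit2 was 1.60-fold (1.35 to 1.90) higher, with intervals that did not overlap. In the old comparison Ifit1 was 39.5-fold (30.1 to 52.9), Ifit3 23.5-fold (20.2 to 27.5) and Ifit2 21.6-fold (18.7 to 25.1) higher, so Ifit2 and Ifit3 no longer differed beyond counting error. Ifit3 and Ifit3b share 51.2% of the windows of Ifit3 and their single values are uncertain.

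The OAS enzymes make 2′-5′ oligoadenylate, which activates an RNA-degrading enzyme, and their genes lie on chromosome 5. Oas1a was at 0.285, 2.15, 0.949 and 37.0 FPKM, Oas2 at 0.505, 0.798, 0.431 and 34.4 FPKM, and Oas3 at 0, 0.474, 0.00904 and 30.2 FPKM. Oas3 had 0, 67, 1 and 4971 reads. Against the 3 reads that a count of 0 allows, its ratio in the young comparison was 22.8-fold. The interval of that comparison started at 18.1-fold and had no upper end. In the old comparison its ratio was 3345-fold with an interval of 600.0 to 132138, since it rests on 1 read in naive tissue. Its neighbour Oas2, whose gene body ends 3244 bases away, had 46, 71, 30 and 3557 reads. Oas2 was 1.58-fold (1.07 to 2.34) higher in young and 79.8-fold (55.8 to 118) higher in old tumor-bearing tissue. Oas1a was 7.53-fold (3.99 to 15.7) and 39-fold (26.9 to 58.8) higher, but 57.6% of its windows also occurred in Oas1g. Between the tumor-bearing libraries, Oas3 and Oas2 showed the largest ratios of the 39 genes, 63.8-fold (50.2 to 82.5) and 43.1-fold (34.1 to 55.3) higher in the old one.

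Oasl1 and Oasl2 encode OAS-like proteins with ubiquitin-like domains, and they neighbour each other, 11005 bases apart. Oasl1 was at 0.0938, 0.575, 0.221 and 9.55 FPKM, and Oasl2 at 0.622, 4.13, 0.752 and 78.0 FPKM. Oasl2 was the more abundant in every library. Its ratio was 6.65-fold (5.26 to 8.51) in young and 104-fold (82.7 to 132) in old tumor-bearing tissue. Oasl1, with 5, 30, 9 and 579 reads, was 6.13-fold (2.36 to 20.2) and 43.3-fold (22.6 to 95.1) higher.

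Among the other antiviral effectors, Bst2 was the most abundant gene of the set in both tumor-bearing libraries. Bst2 encodes tetherin, which holds budding virus at the cell surface. It was at 3.57, 25.6, 3.82 and 422 FPKM, 7.16-fold (5.52 to 9.41) higher in young and 110.3-fold (84.4 to 147) higher in old tumor-bearing tissue, with no difference beyond counting error between the naive libraries (1.07-fold, 0.732 to 1.56). Samhd1, which lowers the pool of deoxynucleotides, was at 2.43, 4.36, 2.70 and 20.8 FPKM. Rtp4, a chaperone of membrane receptors, was at 1.31, 4.11, 1.53 and 32.8 FPKM. Both were higher in tumor-bearing tissue of either age, Samhd1 1.80-fold (1.60 to 2.02) and 7.69-fold (6.93 to 8.55), Rtp4 3.14-fold (2.32 to 4.31) and 21.5-fold (16.2 to 29.0). Trim30a, a ring finger protein that restrains Toll-like receptor signalling, was at 0.678, 2.91, 0.684 and 41.7 FPKM. It was 4.29-fold (3.20 to 5.83) and 61.0-fold (45.3 to 84.0) higher, and 5.98% of its windows also occurred in Trim30d.

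Rsad2 and Cmpk2 are neighbours on chromosome 12, on opposite strands and 12751 bases apart. Rsad2 encodes viperin, which makes a chain-terminating nucleotide, and Cmpk2 encodes the nucleotide kinase that supplies its substrate. Rsad2 was at 0.338, 1.58, 0.634 and 52.6 FPKM, and Cmpk2 at 6.14, 6.89, 7.38 and 44.7 FPKM. Cmpk2 was far the higher in both naive libraries, and in old tumor-bearing tissue Rsad2 was the higher. In the young comparison Rsad2 was 4.67-fold (3.13 to 7.18) higher, while Cmpk2, at 1.12-fold (0.995 to 1.27), was the 1 member of the 39 whose interval included 1 on the deposited scale. Under 3 of the 4 other scalings the intervals of all 39 lay above 1. In the old comparison they were 83.0-fold (61.5 to 115) and 6.06-fold (5.51 to 6.67) higher. The Mx genes encode dynamin-like GTPases, and many laboratory strains, C57BL/6 among them, carry defective alleles of Mx1. Mx1 transcripts were at 0.0775, 0.568, 0.169 and 6.99 FPKM, and those of Mx2 at 0.284, 0.650, 0.336 and 5.09 FPKM, the lowest levels of the set in old tumor-bearing tissue. Mx1 was 7.33-fold (3.11 to 21.1) and 41.4-fold (22.3 to 86.7) higher, and Mx2 2.29-fold (1.34 to 4.03) and 15.2-fold (9.59 to 25.4).

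ISG15 is a ubiquitin-like protein that is joined to other proteins, and USP18 removes it and also blocks the interferon receptor. Isg15 was at 2.65, 6.68, 3.55 and 159 FPKM, and Usp18 at 0.438, 2.19, 0.275 and 30.0 FPKM. Both were higher in tumor-bearing tissue of either age. Isg15 was 2.52-fold (1.74 to 3.71) higher in young and 44.7-fold (33.0 to 62.1) in old tumor-bearing tissue, and Usp18 4.99-fold (3.22 to 8.01) and 109-fold (62.3 to 212). Herc6, the ligase that joins ISG15 to its targets in the mouse, was at 0.805, 1.31, 1.53 and 15.5 FPKM. Trim25, a ubiquitin ligase that activates RIG-I, was at 1.16, 1.96, 2.21 and 38.0 FPKM. These 2 ligases were 1.90-fold (1.54 to 2.35) and 1.90-fold (1.52 to 2.38) higher in old than in young naive tissue. In young tumor-bearing against young naive tissue the values were 1.62-fold (1.32 to 2.0) and 1.69-fold (1.36 to 2.10), and the intervals of the 2 comparisons, which share the young naive library, overlapped. Windows shared with other genes made up 12.5% of Herc6, most of them with Gm45193.

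PARP9 and DTX3L form a complex that joins ADP-ribose and ubiquitin, and PARP14 is a related ADP-ribosyltransferase. Parp9 was at 0.853, 2.04, 1.04 and 23.3 FPKM, Dtx3l at 0.940, 1.93, 1.48 and 17.5 FPKM, and Parp14 at 0.631, 1.77, 0.625 and 19.5 FPKM. All 3 lie on chromosome 16, and the bodies of Parp9 and Dtx3l overlap on opposite strands. Reads in the overlap cannot be told apart where the strand is unknown, and 7.71% of the windows of Parp9 occurred in Dtx3l. Parp9 was 2.39-fold (1.85 to 3.12) and 22.5-fold (18 to 28.5) higher, Dtx3l 2.05-fold (1.63 to 2.61) and 11.8-fold (9.88 to 14.1), and Parp14 2.81-fold (2.27 to 3.49) and 31.3-fold (25.4 to 38.9).

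The remaining members are induced genes with varied or less settled roles. Lgals3bp, a secreted glycoprotein that binds galectin 3, was at 4.36, 21.1, 7.86 and 180.3 FPKM. Ifi27l2a, a small membrane protein, was at 0.739, 11.2, 1.93 and 87.7 FPKM, and its neighbour Ifi27, whose product lies in mitochondria, at 11.8, 24.0, 18.6 and 73.2 FPKM. Ifi27 was the most abundant member in both naive libraries and had the smallest ratio of the 39 in the old comparison, 3.93-fold (3.55 to 4.37), after 2.04-fold (1.79 to 2.32) in the young one. Ifi27l2a, 1927 bases away on the other strand, had 7, 104, 14 and 944 reads and was 15.2-fold (7.12 to 38.7) and 45.4-fold (26.9 to 83.3) higher. Lgals3bp was 4.84-fold (4.22 to 5.56) and 22.9-fold (20.6 to 25.6) higher. Xaf1, which opposes an inhibitor of apoptosis, was at 1.14, 2.87, 1.79 and 28.5 FPKM. Ifi35, a leucine zipper protein, was at 0.878, 2.17, 1.41 and 58.5 FPKM, and Ifi44, a cytoplasmic protein, at 0.104, 0.677, 0.0417 and 11.1 FPKM. Ifi44 had 13, 83, 4 and 1579 reads and was 6.53-fold (3.62 to 12.8) and 266-fold (104 to 976) higher. Ifi35 was 2.47-fold (1.61 to 3.89) and 41.6-fold (30.2 to 58.9) higher, and Xaf1 2.52-fold (2.01 to 3.18) and 16-fold (13.4 to 19.2).

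In young tumor-bearing against young naive tissue, 33 of the 39 genes passed the floor of 1 FPKM, 22 were at least 2-fold higher and 0 lower. Over all genes 5.05% of 15500 were higher and 1.85% lower, and among protein-coding genes alone 2.31% were higher. At least 4-fold higher were 9 of the 39, against 2.34% of all genes. The median log2 ratio over all 39 was 1.36 (range 0.16 to 4.27), beside -0.01 over all genes. The 6 genes under the floor were Oasl1, Oas2, Oas3, Mx1, Mx2 and Ifi44, and their intervals all lay above 1. In all, the interval lay above 1 for 32 of the 33 genes past the floor, against 24.7% of all genes. With old naive tissue in place of young naive tissue as the reference, chosen after the values were seen, 18 genes were at least 2-fold higher, against 6.98% of 15835 genes, with a median of 1.10, and 36 were above 0. T cell markers at 0 in young naive tissue were Cd3d, Cd3g, Cd8a and Cd8b1, and the list summed to 2.60 FPKM against 5.29 FPKM in young tumor-bearing tissue. The monocyte and macrophage list, with Ly6c2 at 0 in young naive tissue, summed to 9.14 and 33.4 FPKM. The microglia list summed to 92.0 and 105 FPKM, and the NK and cytotoxic list to 1.92 and 3.70 FPKM. Of the 8 NK and cytotoxic markers, Ncr1, Klrb1c, Klrk1, Prf1, Gzma and Nkg7 were at 0 in young naive tissue. The sum there came from Gzmb and Eomes. The part of entering cells in the result was not tested, and in bulk tissue more cells of a type and more RNA per cell cannot be told apart.

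Between the old libraries, tumor-bearing over naive, all 39 genes were at least 2-fold higher, against 20.6% of 16488 genes (31.4% were lower), and 38 of 39 at least 4-fold, against 11.3%. The exception to the 4-fold mark was Ifi27. The median log2 ratio was 4.74 (range 1.97 to 8.12), beside -0.31 over all genes. Under the other scalings it was 5.11 to 5.27, and against young naive tissue in place of old naive tissue, an alternative added after the values were seen, it was 5.15 with all 39 at least 2-fold higher, against 20.7% of 16316 genes. The split of all genes depended on scaling, with 3395 higher and 5171 lower on the deposited scale and 5011 and 3356 when scaled by fragments in listed genes. Monocyte and macrophage markers summed to 15.3 FPKM in old naive and 270.3 FPKM in old tumor-bearing tissue, NK and cytotoxic markers to 0.198 and 39.4 FPKM, and T cell markers to 4.86 and 25.2 FPKM. At 0 in old naive tissue were Ncr1, Klrb1c, Gzma, Gzmb and Eomes of the NK list and Cd3e and Cd3d of the T cell list. In the T cell list 1 of the 8 markers went the other way, with a log2 ratio of -0.84. The microglia list summed to 112 FPKM in both, but its single markers differed in both directions. On the deposited scale the interval lay below 1 for 5 of its 8 markers and above 1 for 2. The median log2 ratio of that list was -0.61, beside -0.31 over all genes. Proliferation markers were at 0.523 and 132 FPKM, and neuron markers at 1316 and 292 FPKM. What these cell types, or GL261 cells themselves, contributed to the 39 genes was not tested.

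**Figure D3:**
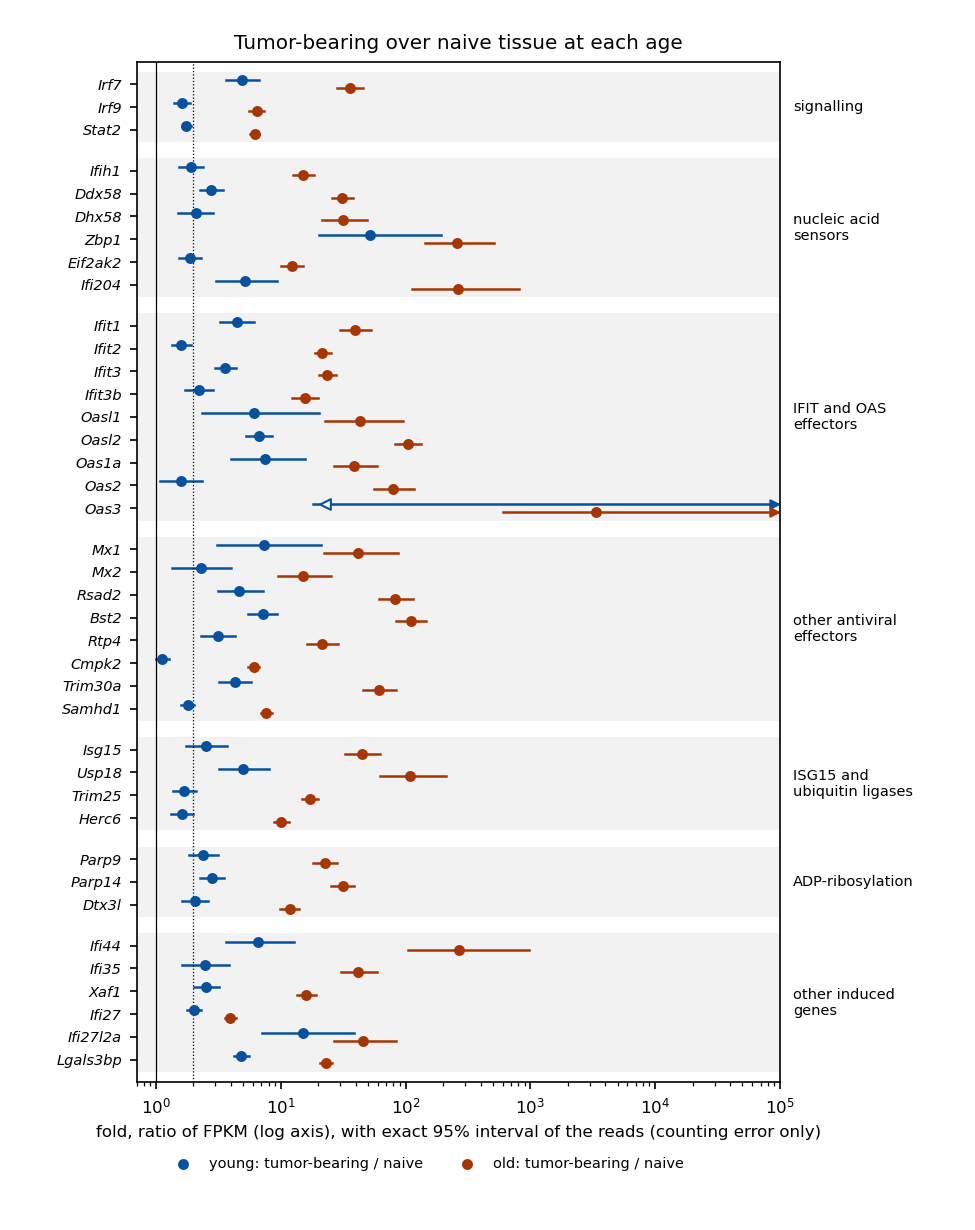
Fold of tumor-bearing over naive tissue for each gene on a log axis, young in blue and old in brown, with the exact 95% interval of the reads as a line and 2-fold as a dotted line. The old interval lies wholly to the right of the young one in 36 rows and overlaps it for Oas3, Zbp1 and Ifi27l2a. The open triangle marks the ratio of Oas3 against 3 reads in young naive tissue, and arrowheads mark intervals that run past the axis.

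The log2 ratio of tumor-bearing over naive tissue, with the added constant, was larger in old than in young tissue for all 39 genes. The old log2 ratio exceeded the young one by a median of 3.11 (range 0.95 for Ifi27 to 5.60 for Oas3). The median difference over 17441 genes was -0.32. The difference of Oas3 depends on the added constant, since it had 0 reads in young naive and 1 in old naive tissue. Its young interval has no upper end, so the reads alone cannot order its 2 folds. The counting intervals of the 2 folds did not overlap for 36 genes, against 23.5% of all genes with the old fold above and 41.9% with it below, and overlapped for Oas3, Zbp1 and Ifi27l2a. Each fold rests on 2 libraries that the other does not use, and no interaction could be tested with 1 library per group. The order of the genes was alike at both ages, with a Spearman coefficient of 0.75 and a Pearson coefficient of 0.72 across the 39 genes, a description of genes that share libraries and are not replicates. Genes low in young naive tissue had the larger old ratios (Spearman -0.61 between log level and log ratio across the 39). After Oas3 the largest differences were those of Oas2 (5.45) and Ifi204 (5.01), and after Ifi27 the smallest were those of Ifi27l2a (1.68) and Stat2 (1.82).

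Old tumor-bearing against young tumor-bearing tissue gave the same direction for every gene. All 39 were at least 2-fold higher in the old library, against 19.0% of 16562 genes (29.8% were lower), and 37 at least 4-fold, against 9.23%. The median log2 ratio was 3.47 (range 1.60 to 5.72), beside -0.28 over all genes. The split of all genes again moved with scaling, from 3155 higher and 4941 lower to 4295 and 3453 with median-of-ratios scaling. The 2 genes under 4-fold were Ifi27 (3.04-fold, 2.80 to 3.32) and Stat2 (3.46-fold, 3.27 to 3.67). This comparison shares the old tumor-bearing library with the previous one. The summed levels of the macrophage, NK and proliferation lists given above were also higher in the old tumor-bearing library, while single markers such as Cd163 (log2 ratio -1.92) and Eomes (-1.51) were lower there.

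Naive tissue of the 2 ages was close. Of the 39 genes, 22 passed the floor, 1 (Ifi27l2a) was at least 2-fold higher in old tissue and 0 lower, against 6.71% higher and 4.93% lower among 15419 genes. The interval lay above 1 for 9 of the 22, a share near the 34.8% of all genes, and for 0 of the 22 below 1, against 26.8%. The 9 were Irf7 (1.79-fold, 1.24 to 2.59), Ifit3 (1.55-fold, 1.24 to 1.95), Cmpk2 (1.2-fold, 1.06 to 1.36), Herc6, Trim25, Dtx3l (1.58-fold, 1.22 to 2.05), Xaf1 (1.57-fold, 1.21 to 2.04), Ifi27 (1.58-fold, 1.37 to 1.82) and Lgals3bp (1.80-fold, 1.53 to 2.12). Under the floor, Oas1a (3.33-fold, 1.61 to 7.40), Rsad2 (1.87-fold, 1.15 to 3.09) and Zbp1 (3.59-fold, 1.06 to 15.5) had intervals above 1, and Dhx58 was 1.77-fold (1.10 to 2.92) lower in old tissue. The interval of Ifi27l2a, which had 7 and 14 reads, included 1. The median log2 ratio over all 39 was 0.24 on the deposited scale, beside 0.06 over all genes, and lay between 0.04 and 0.21 under the other scalings. The number of genes above 0 was 31 of 39 on the deposited scale and 22 when FPKM totals were made equal. The interval lay above 1 under each of the 5 scalings for Irf7, Ifit3, Herc6, Trim25, Dtx3l, Xaf1, Ifi27, Lgals3bp and Oas1a, but not for Cmpk2, Rsad2 and Zbp1. The split of all genes, 1035 higher and 760 lower, turned to 712 and 1019 with equal FPKM totals.

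**Figure D4:**
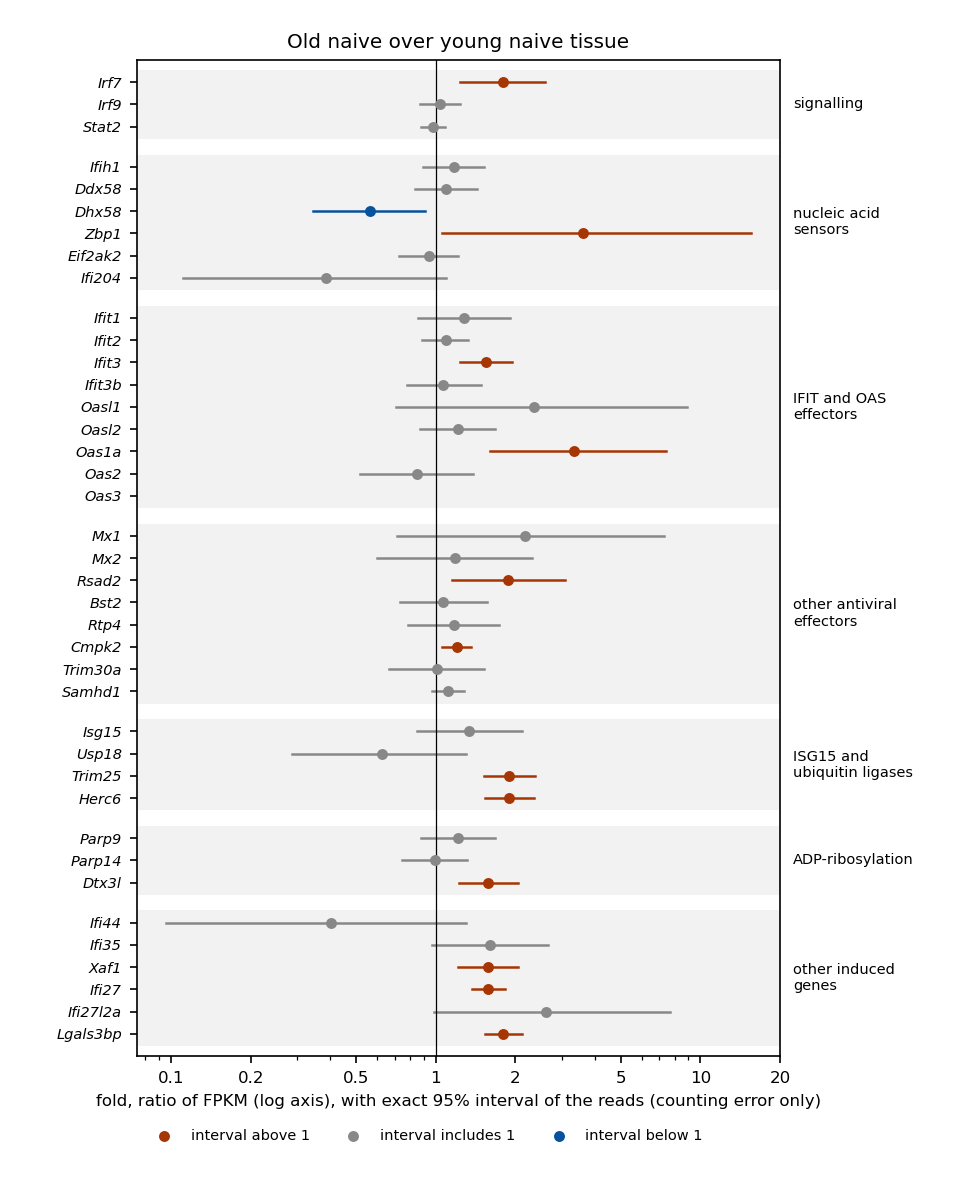
Fold of old naive over young naive tissue for each gene on a log axis, with the exact 95% interval of the reads, on the deposited scale. Intervals above 1 are brown (12 genes), below 1 blue (Dhx58) and the others grey; Oas3, with 0 and 1 reads, has no fold.

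The ligands were nearly undetected. Of 21 interferon genes, 20 were at 0 reads in young naive, 19 in young tumor-bearing, 21 in old naive and 17 in old tumor-bearing tissue. Ifnb1, interferon beta, had 2, 0, 0 and 0 reads. The interferon alpha genes with numbered symbols on the list had 0 reads in each library. Ifng, interferon gamma, had 0, 1, 0 and 25 reads, which put it at 0.83 FPKM in old tumor-bearing tissue. Against the 3 reads that a count of 0 in old naive tissue allows, that was 5.61-fold, with an interval that started at 4.23-fold. By depth alone, a count of 0 in a gene of 1 kb allows 0.129 to 0.192 FPKM, so expression below that was not detectable, and protein was not measured. How reads that match several genes were counted is not given, and sequence shared among the ligand genes was not examined. The interferon genes on the list have counts too low for any order between libraries other than that of Ifng.

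The genes that pass the signal on gave a range of values. Of 9 genes for interferon receptors and JAK kinases, 0 were at least 2-fold higher or lower in the young comparison, and 3 were higher and 0 lower in the old one. Over all genes 5.05% were higher in the young and 20.6% in the old comparison, so these counts were near the background. Ifnar1, a chain of the type I receptor, was at 8.99, 8.45, 9.75 and 10.2 FPKM, and the other chain, Ifnar2, at 3.88, 4.04, 3.53 and 9.60 FPKM. Ifnar2 was 2.72-fold higher (2.31 to 3.21) in old tumor-bearing tissue, with Ifngr1 and Il10rb the other 2 past the mark. Of 17 inducers and other transducers, 4 were higher in the young (all genes 5.05%) and 14 in the old comparison (all genes 20.6%), with 0 lower in either. Irf1, a factor strongly induced by interferon gamma, was at 1.11, 4.68, 2.36 and 70.9 FPKM, 4.23-fold (3.35 to 5.38) higher in young and 30.0-fold (25.5 to 35.6) higher in old tumor-bearing tissue. On a list of 9 genes drawn up for feedback, 3 were higher in the young and 5 in the old comparison, beside the same 5.05% and 20.6%. The 5 include Isg20, an interferon-induced gene that is not an inhibitor of the pathway. Pias1 and Ptpn11 had ratios of 0.585 and 0.629 in the old comparison, short of 2-fold lower, with intervals below 1 on the deposited scale. There 50.4% of all genes past the floor had an interval below 1. The inhibitor of JAK kinases Socs1 was at 0.370, 2.11, 0.374 and 15.3 FPKM, 5.72-fold higher (3.61 to 9.45) in young and 40.8-fold (25.4 to 70.4) in old tumor-bearing tissue.

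The nearest set for comparison was that of the 16 GTPases of the GBP and IRG families, which defend against intracellular microbes and respond chiefly to interferon gamma. In young tumor-bearing tissue 13 of the 16 were at least 2-fold higher and 12 at least 4-fold, with a median log2 ratio of 2.90, or 3.12 with genes at 0 reads set to 3 reads. The values of the 39 interferon-stimulated genes in that comparison were 22, 9 and 1.36. In old tumor-bearing tissue all 16 were at least 4-fold higher, with a median of 5.61 beside 4.74. The summed level of the GTPases was 12.6, 114, 22.2 and 1467 FPKM, a ratio of 9.07 in young and 66.0 in old tissue, and that of the 39 genes had ratios of 2.90 and 23.5. Whether the sets differ was not tested, since each group was 1 library.

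**Figure D5:**
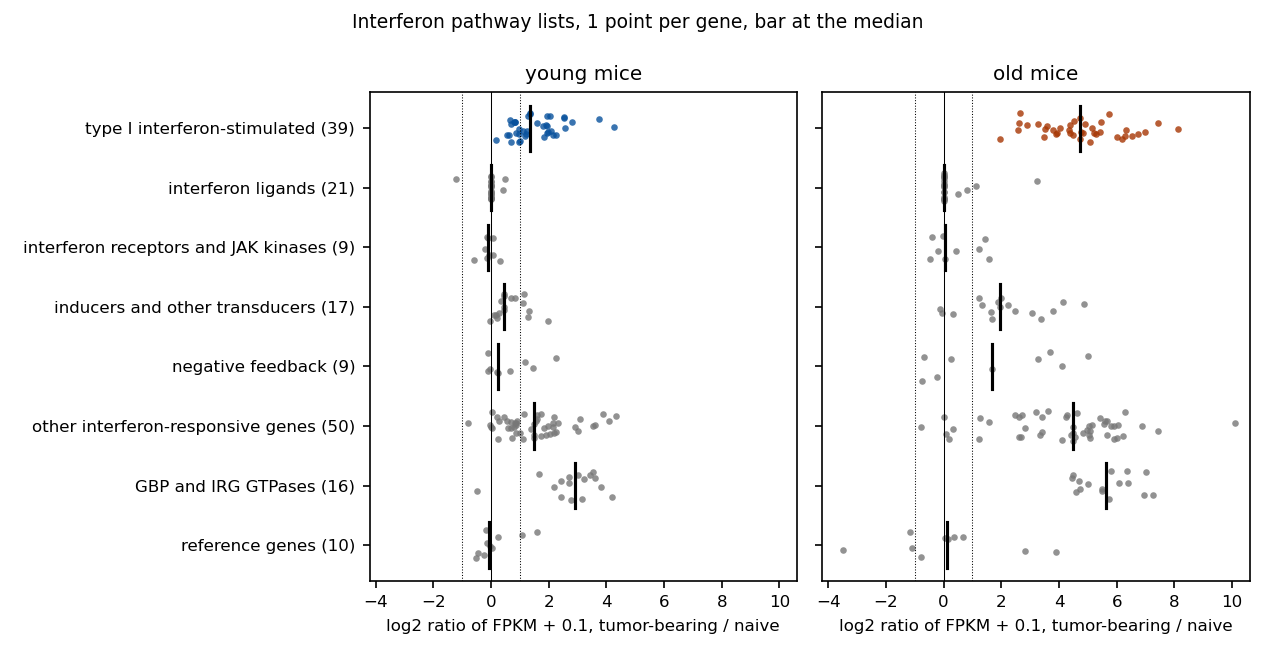
Log2 ratio of FPKM + 0.1 in tumor-bearing over naive tissue for each gene of the interferon lists, young mice on the left and old mice on the right, with a bar at each list's median and dotted lines at 2-fold. The 39 genes have medians of 1.36 and 4.74, the ligands 0.00 in both, the receptors and kinases -0.09 and 0.06, and the GBP and IRG GTPases 2.90 and 5.61.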

How the data were processed

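The deposited values are FPKM per gene, 1 file and 1 library per group, made by the authors, per the file headers. The submitters' processing notes name HISAT2, an aligner, and the genome build mm10. The counting program and its settings, that for strand included, are not given in the sources used here. Both directional and non-directional library kits are described, so reads of overlapping genes on opposite strands cannot be told apart. Multiplying FPKM by the union exon length of GENCODE M21 gave whole reads in all 4 libraries for 31928 of 32846 genes above 0 (97.2%, within 0.03 reads or 2e-05 of the value), among them all 39 members, and these reads gave the depths and intervals. The FPKM divisor was 0.797 to 1.19 times the fragments in genes.

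Symbols were joined to gene IDs through GENCODE M21, and 37 of 54532 genes had no annotation. The members and lists were chosen with earlier results of these data known. By rule all 39 members could be named, with 4 values for each that reached 5 FPKM, and from other lists up to 4 genes with the largest old tumor-bearing ratio plus Irf1. Another gene that the rule names is not reported here. Ifnar1, Ifnb1, Pias1, Ptpn11 and the single cell type markers were named after their values were seen. With 1 library per group no test between groups was made. Python 3.11.15, numpy 2.4.6, pandas 2.3.3, scipy 1.17.1 and matplotlib 3.10.9 were used, and the read recovery and intervals were tested on simulated data. Alternatives were 4 scalings, added constants of 1 and 0.01 FPKM, floors of none and 5 FPKM, a 4-fold threshold and protein-coding genes as background. The RefSeq promoter table was read on GRCm38.p6.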

Additional observations from a re-analysis of the deposited data

Results flagged for a closer look

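Dhx58, which encodes the RNA sensor LGP2, differed with age in opposite directions in naive and in tumor-bearing tissue. In naive tissue it was at 0.897 FPKM (60 reads) in the young and 0.508 FPKM (26 reads) in the old library, a log2 difference of -0.71. In tumor-bearing tissue it was 8.65-fold higher (7.18 to 10.5) in the old library. The lower naive value held under the 4 other scalings, where the old over young ratio was 0.484 to 0.555. The order of the libraries was not particular to Dhx58, which shared it on the deposited scale with Oas2, Usp18, Stat2, Ifi44, Parp14, Eif2ak2 and Ifi204. Ifi204 had the larger naive log2 ratio in size, -0.81. Dhx58 was the 1 member with a naive interval below 1 on that scale, against 26.8% of all genes past the floor. The difference between the 2 age effects was not tested, since each group was 1 library, and the naive values of Dhx58 lie under the floor of 1 FPKM.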

How the results depend on the processing

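No value given for the 39 genes as a set changed its direction under any alternative run. The number at least 2-fold higher in young tumor-bearing tissue, 22, was 13 with 1 FPKM added, 6 with a floor of 5 FPKM and 9 at a 4-fold threshold. The floor of 5 FPKM was reached by 8 of the 39 in young tumor-bearing and by 3 in young naive tissue. The median log2 ratio of this comparison was 0.77 with 1 FPKM added. With the same constant the median of old tumor-bearing over old naive tissue was 3.74, and over young tumor-bearing tissue 3.0. The latter was 3.84 with scaling by fragments in genes, 3.86 with median-of-ratios scaling and 3.78 with fragments counted without the mitochondrial genes and the 50 most abundant ones. For old over young naive tissue the number at least 2-fold higher, 1, was 0 with 1 FPKM added, with a floor of 5 FPKM and at a 4-fold threshold, and 2 without a floor. Genes with an interval below 1 there numbered 3 (Dhx58, Stat2 and Ifi204) under each scaling but median of ratios. That count, the order of the libraries by scaling and the exchange of naive libraries were chosen after seeing the data.

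Leaving out a replicate was not possible with 1 library per group. No paired analysis was possible because each group held 1 library. Depth limits the lowest members, since ratios of Oas3, Oas1a, Zbp1, Ifi27l2a, Oasl1, Mx1, Mx2, Usp18, Ifi44 and Ifi204 rest on fewer than 20 reads in at least 1 naive library.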

Other observations

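A further list of 50 interferon-responsive genes outside the set of 39 held 19 that were at least 2-fold higher in the young comparison of tumor-bearing with naive tissue and 45 in the old one, with 0 lower in either, beside 5.05% and 20.6% of all genes higher. Its median log2 ratio was 1.48 and 4.48. Cxcl10, a chemokine that draws T cells, was at 0.0869, 3.69, 0.114 and 237 FPKM (young naive and tumor-bearing, then old naive and tumor-bearing), a log2 ratio of 4.34 in the young and 10.11 in the old comparison with 4 reads in each naive library. Apol9b was at 0.0537, 1.21, 0.105 and 35.0 FPKM, and Apol9a at 0.0411, 0.428, 0.0537 and 17.8 FPKM. Adar, which encodes an RNA-editing enzyme, was at 23.5, 23.9, 29.3 and 16.9 FPKM, and Tdrd7 at 11.3, 11.1, 11.3 and 12.0 FPKM. These 2 were named after their values were seen, as genes of the list that were not at least 2-fold higher in either comparison.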
